A study of Mus musculus with 5 samples.

Results

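The peaks of mouse chromosome 1 were taken from 4 deposited peak lists, by keeping every line whose chromosome column read 1. They numbered 5385 of 71757 peaks in all lists together. For the nuclear receptor TLX they were 461 of 7458 peaks in neural stem cells (NSC) and 297 of 1436 in brain tumour stem cells (BTSC). For acetylation of lysine 27 of histone H3 (H3K27ac) they were 1965 of 31266 in NSC and 2662 of 31597 in BTSC. Chromosome 1 was chosen by its high share of the BTSC peaks in these same lists, so the peak numbers and covered lengths of NSC and BTSC on it are given as a description, with no test.

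Per the labels, mouse primary neural stem cells or brain tumour stem cells in culture were fixed with formaldehyde, and precipitated DNA was sequenced in read pairs. For TLX, cells of either culture carried a retrovirus encoding TLX-3xTY1 and were selected with a drug written as G-481; the antibody was against the TY1 tag, so the protein mapped was tagged TLX made from the retrovirus. H3K27ac was mapped in NSC and BTSC that had not been transduced. A sample without antibody, from cells with the empty vector MSCV-neo, completed the 5 samples; its peaks were not analysed here. The labels give no strain, animal age, driver of the tumours or number of animals behind either culture. Each group had 1 library, so no difference between cultures has a replicate check. Intervals are 95% intervals and cover counting error only.

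TLX, encoded by Nr2e1, is an orphan nuclear receptor that recruits corepressors to its target genes and keeps neural stem cells of the adult brain able to divide. It binds DNA through zinc fingers at sites holding the core AAGTCA. H3K27ac marks active promoters and enhancers, so it shows which regulatory DNA is in use. A called peak depends on the depth and enrichment of its library, which are unknown here: a missing peak means that none was called, not that the mark or protein was absent.

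The promoters printed here carry a TLX summit of the BTSC list and are shown because they hold the strongest promoter summit of the chromosome, at Actr3, and examples that hold AAGTCA. The letters run 5′ to 3′ on the strand of the gene, from 250 bases before to 50 after the RefSeq start on GRCm38.p6, and capitals mark AAGTCA or its complement read on this strand. Actr3 lies at chr1:125435678-125435977, Fam126b at chr1:58586284-58586583, Klhl20 at chr1:161131430-161131729 and Fhl2 at chr1:43163912-43164211, all on the minus strand.
Actr3: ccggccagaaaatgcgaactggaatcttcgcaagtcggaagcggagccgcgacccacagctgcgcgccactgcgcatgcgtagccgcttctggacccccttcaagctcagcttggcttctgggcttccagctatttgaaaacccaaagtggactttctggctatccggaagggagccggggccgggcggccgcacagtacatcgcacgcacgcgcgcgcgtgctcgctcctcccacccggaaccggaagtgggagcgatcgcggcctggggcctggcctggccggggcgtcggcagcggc
Fam126b: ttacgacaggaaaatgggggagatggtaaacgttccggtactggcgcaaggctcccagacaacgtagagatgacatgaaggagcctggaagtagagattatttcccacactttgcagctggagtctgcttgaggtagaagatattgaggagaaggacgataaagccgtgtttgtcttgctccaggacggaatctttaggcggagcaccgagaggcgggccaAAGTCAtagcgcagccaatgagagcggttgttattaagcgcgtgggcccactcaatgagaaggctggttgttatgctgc
Klhl20: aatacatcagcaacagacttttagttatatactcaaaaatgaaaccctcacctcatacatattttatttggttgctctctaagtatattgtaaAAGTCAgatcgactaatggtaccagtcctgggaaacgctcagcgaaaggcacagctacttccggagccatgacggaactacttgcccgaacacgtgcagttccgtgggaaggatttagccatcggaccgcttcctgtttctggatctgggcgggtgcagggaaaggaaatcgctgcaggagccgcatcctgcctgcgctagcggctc
Fhl2: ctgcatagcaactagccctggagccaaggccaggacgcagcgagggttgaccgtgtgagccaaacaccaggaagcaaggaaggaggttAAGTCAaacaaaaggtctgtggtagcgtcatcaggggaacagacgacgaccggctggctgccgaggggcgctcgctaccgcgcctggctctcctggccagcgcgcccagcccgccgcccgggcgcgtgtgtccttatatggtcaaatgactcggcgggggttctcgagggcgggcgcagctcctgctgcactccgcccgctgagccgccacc

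Relative to the start, the BTSC summit lay at -246 in Actr3, -189 in Fam126b, -162 in Fhl2 and 20 in Klhl20. Actr3 encodes a subunit of the Arp2/3 complex, which nucleates actin branches. Its peak had a fold over the caller's background of 13.9 in BTSC and 8.67 in NSC, and AAGTCA was not found in the window shown. Such folds are the authors' own value per peak and describe each list, not a change between lists. The Fhl2 promoter, of a LIM-domain cofactor, had a BTSC peak of fold 4.80 and no NSC peak. Searched on both strands, AAGTCA was found in 4 of the 28 chromosome 1 promoters with a BTSC TLX summit (Fam126b, Klhl20, Fhl2 and Gm973), which is 14.3%, and in 7 of the 58 with an NSC summit, 12.1%. All RefSeq promoters of the same length held it at 15.1%, and those of chromosome 1 at 16.0%. The share near TLX summits was thus not above that of promoters at large. Some of these windows overlap, such as those of Hspd1 and Hspe1, which share 1 start region.

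Mature microRNAs are shown where H3K27ac near the microRNA gene was called higher in BTSC, level, or higher in NSC (calls defined below). The sequences are from RefSeq on GRCm38.p6, and capitals mark the seed, bases 2 to 8. All genes lie on the plus strand.
miR-181a-5p: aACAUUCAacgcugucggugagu
miR-181b-5p: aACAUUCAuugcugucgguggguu
miR-488-3p: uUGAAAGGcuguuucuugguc
miR-26b-5p: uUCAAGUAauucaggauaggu
miR-30a-5p: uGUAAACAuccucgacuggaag
miR-29b-3p: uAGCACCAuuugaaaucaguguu
miR-29c-3p: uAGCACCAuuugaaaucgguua
miR-199a-5p: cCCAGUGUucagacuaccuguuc
miR-214-3p: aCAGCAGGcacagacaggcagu

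Members with a common seed came from a shared cluster. Mir181a-1 and Mir181b-1, at chr1:137966468-137966673 by their 5p arms, have the seed ACAUUCA, and 5891 bp around their ends carried H3K27ac in NSC against 13619 bp in BTSC. Mir29b-2 and Mir29c have the seed AGCACCA and were level, at 2475 bp in NSC and 2329 bp in BTSC. Mir488 had 3910 bp in NSC and 16389 bp in BTSC, Mir26b had 5270 and 10035 bp, and Mir30a had 2177 and 3344 bp. Mir30c-2, whose 5p arm shares the seed of miR-30a-5p, had 0 bp in both. The opposite direction was seen at Mir135b, with 5584 bp in NSC and 3571 bp in BTSC, at Mir199a-2, with 3494 and 2155 bp, and at Mir214, with 2492 and 1159 bp. Of the 18 microRNA genes listed, 5 were called higher in BTSC, 3 higher in NSC and 2 level, with a median difference of 0 bp. Of the protein-coding genes of chromosome 1, 35.0% were higher in BTSC, 2.57% higher in NSC and 15.4% level. The other 8 were between these calls or under the minimum of covered bp. The covered lengths say nothing on the amount of microRNA made.

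The identity of the cultures was checked at starts of marker genes on any chromosome. H3K27ac lay within 1 kb of a start for 7 of the 8 neural stem cell markers with a start in the table in either culture, with Pax6 at none in both. Of 5 neuronal markers, 4 had it in NSC (Dcx, Neurod1, Syt1 and Tubb3) and 1 in BTSC (Tubb3). Of 5 microglial markers none had it in either culture, and of 4 endothelial markers Flt1 had it in NSC only. On chromosome 1 itself, 13 of 14 immune genes were under the minimum, and the exception was Fcer1g, which encodes a shared chain of Fc receptors, with 10072 bp in NSC against 16285 bp in BTSC. The part of other cell types in the differences below was not tested.

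Chromosome 1 held 20.7% of the BTSC TLX peaks (18.6 to 22.9) and 6.18% of the NSC ones (5.65 to 6.75). It held 8.42% of the BTSC H3K27ac peaks (8.12 to 8.74) and 6.28% of the NSC ones (6.02 to 6.56). The ratio of BTSC to NSC peak numbers was 0.644 for TLX (0.555 to 0.747), while the 18 other autosomes lay between 0.0975 and 0.223 with a median of 0.169. For H3K27ac it was 1.35 (1.28 to 1.44), against 0.806 to 1.05 elsewhere with a median of 1.00. Chromosome 1 was 3.80 times the median autosome for TLX and 1.36 times for H3K27ac. The NSC TLX list was also cut to its 1436 peaks of highest −log10 q, the length of the BTSC list. Chromosome 1 then held 78 NSC and 297 BTSC peaks, a ratio of 3.81, against 0.455 to 1.143 elsewhere. The lowest of both ratios were on chromosome 6, at 0.0975 and 0.806.

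**Figure D1:**
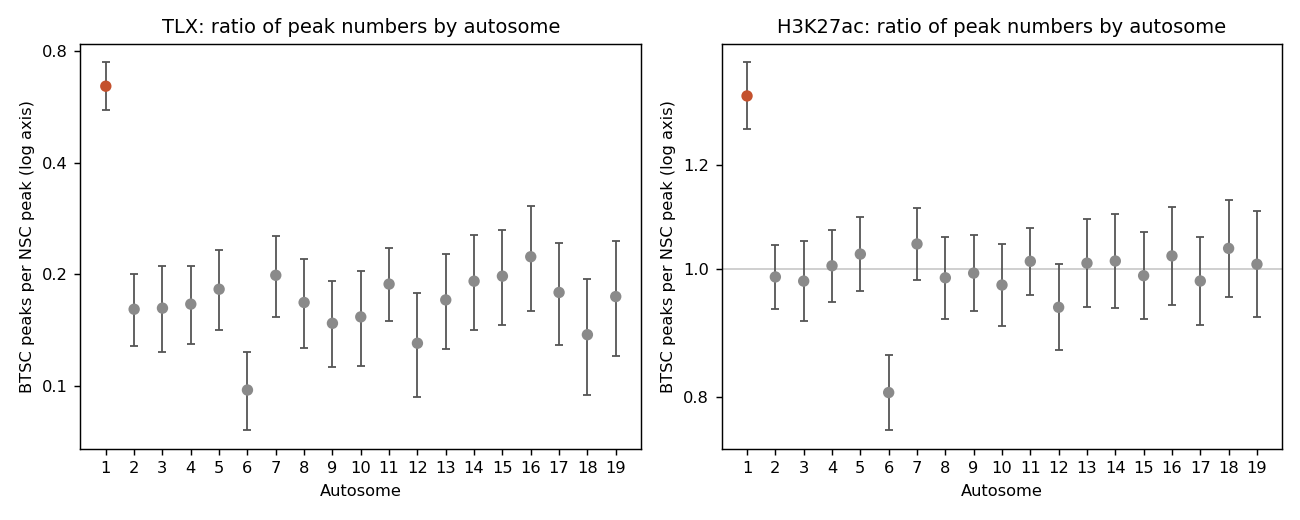
Ratio of BTSC to NSC peak numbers on each autosome for TLX (left) and H3K27ac (right), on log axes, with 95% counting intervals as bars and 1 library per culture. Chromosome 1 (orange) stands at 0.644 and 1.35, and every other autosome lies at or below 0.223 and 1.05.

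The share of chromosome 1 was raised along the whole TLX list of BTSC. That list was cut into 10 equal bins from the highest −log10 q down. The share lay between 13.9% and 29.2%, against 3.89% to 9.12% in such bins of the NSC list. For H3K27ac the BTSC share was 10.1% (9.04 to 11.2) in the bin of highest −log10 q and 5.92% in bin 3. It was 12.3% (11.2 to 13.5) in the bin of lowest −log10 q. The NSC share ran from 5.34% to 7.13%. The BTSC share was therefore highest at both ends of the H3K27ac list and within the NSC range in bins 3 to 5, at 5.92% to 6.58%.

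H3K27ac covered 4.04 Mb of chromosome 1 in NSC and 6.71 Mb in BTSC, a ratio of 1.66, against 0.789 to 1.15 on the other autosomes, and the mean peak width was 2057 bp and 2519 bp. Of the added 2664431 bp, 41.5% was the balance of peaks without a counterpart in the other culture and 58.5% that of peaks with one. Where 1 NSC peak met 1 BTSC peak on chromosome 1, in 1538 pairs, the BTSC peak was the wider in 73.5%, with a median ratio of widths of 1.21. On the other autosomes it was the wider in 51.5% of 20859 pairs, with a median ratio of 1.01. The 1033 BTSC peaks that met no NSC peak were 38.8% of the BTSC peaks on chromosome 1 (36.9 to 40.7), against 21.8% elsewhere, and their median width was 1029 bp against 2084 bp for those that met one. In the other direction, 248 NSC peaks met no BTSC peak, 12.6% against 21.7% elsewhere. Both shares depend on how many peaks the other list holds, and chromosome 1 was chosen for its many BTSC peaks.

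Along the chromosome the excess was spread over its whole length. From the start, in 4 stretches of 50 Mb, the H3K27ac ratio was 1.34, 1.36, 1.396 and 1.33, and the TLX ratio was 0.582, 0.654, 0.682 and 0.641; the intervals of the 4 stretches overlapped for either mark. In windows of 5 Mb, 35 of 40 held at least 20 H3K27ac peaks in both lists together. Of these 35, 33 had more peaks in BTSC, window 14 had equal numbers and window 25 had fewer. A ratio of at least 1.5 was reached in 9 of the 35, where 2.31% of the windows of all autosomes reached it (11 of 477); with peaks of −log10 q of at least 5, 3 of 30 windows reached it. By covered bp, 34 of the 35 had a ratio above 1 and 24 reached 1.5, while 8 of 442 windows elsewhere did. For TLX, 29 windows had at least 5 NSC peaks; their ratios ran from 0.0909 to 1.10 with a median of 0.606, and 21 reached 0.5, against 6 of 395 windows elsewhere with a median of 0.15.

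**Figure D2:**
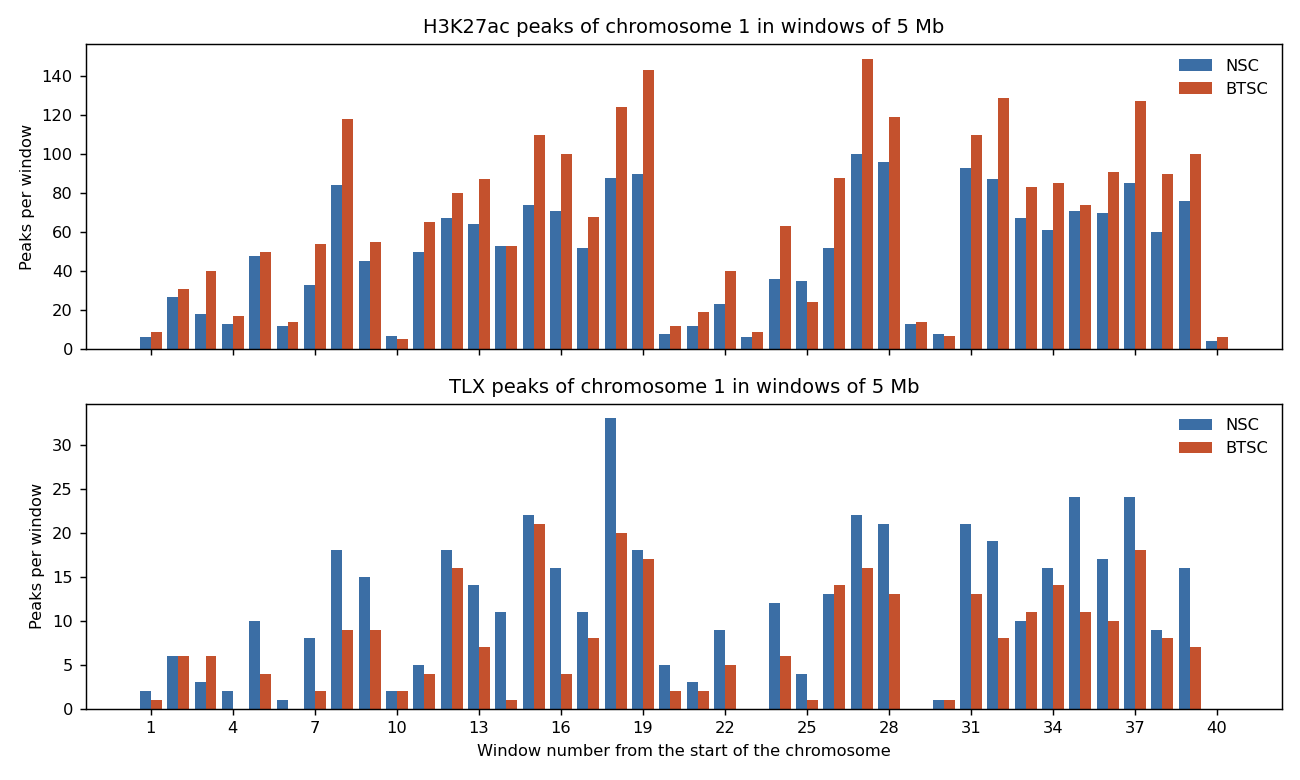
Number of peaks per window of 5 Mb along chromosome 1 for H3K27ac (top) and TLX (bottom), NSC in blue and BTSC in orange, 1 library each. BTSC bars exceed NSC bars in most H3K27ac windows, with window 14 (53 in either) and window 25 (35 against 24) the exceptions among windows with 20 or more peaks, whereas NSC bars exceed BTSC bars in most TLX windows.

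The highest H3K27ac ratio was in window 3, from 10 to 15 Mb, with 18 peaks in NSC and 40 in BTSC, a ratio of 2.22 (1.24 to 4.12). Its covered length went from 28232 bp to 66276 bp and its TLX peaks from 3 to 6. Eya1, a transcriptional cofactor with phosphatase activity in organ development, had the largest gain of covered bp there, from 6877 to 14842 bp, and its TLX peaks numbered 1 in NSC and 3 in BTSC. Cops5, a subunit of the COP9 signalosome, had 3196 and 5205 bp. Of the 16 genes of this window, 5 were higher in BTSC, 3 lay between the calls, 8 were under the minimum and none was level. Over the whole chromosome 35.0% of genes were higher in BTSC, so this count does not stand above it.

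Window 24, from 115 to 120 Mb, had 36 and 63 H3K27ac peaks, a ratio of 1.75 (1.144 to 2.71), and holds Epb41l5, Ralb and Gli2. Gli2, a transcription factor of Hedgehog signalling, had 7254 bp in NSC and 11435 bp in BTSC, with 3 TLX peaks in either list. Window 22, from 105 to 110 Mb, had 23 and 40 peaks and holds Phlpp1 and Bcl2. Bcl2, an inhibitor of apoptosis, had 1684 and 6692 bp and 1 TLX peak in either list. Window 26, from 125 to 130 Mb, had 52 and 88 peaks, and its TLX peaks numbered 13 in NSC and 14 in BTSC. It holds Nckap5, with 6 TLX peaks in either list. Window 7, from 30 to 35 Mb, had 33 and 54 peaks and holds Arhgef4; its TLX peaks numbered 8 in NSC and 2 in BTSC.

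The lowest ratio was in window 25, from 120 to 125 Mb, with 35 H3K27ac peaks in NSC and 24 in BTSC, a ratio of 0.686 (0.390 to 1.19). Here 16 NSC peaks met no BTSC peak, with a median width of 844 bp, and 5 BTSC peaks met no NSC peak. Covered length was 56938 bp in NSC and 52123 bp in BTSC. Within it En1, a homeobox factor of midbrain patterning, nonetheless had more in BTSC, 7157 bp against 3251 bp. Window 14, from 65 to 70 Mb, had 53 peaks in either culture and TLX peaks of 11 in NSC and 1 in BTSC. Map2, which encodes a microtubule protein of dendrites, lies there and was level at 6993 and 7290 bp, while Idh1, the cytosolic isocitrate dehydrogenase, had 5413 and 14492 bp. Windows 5, 35 and 29 followed, with 48 and 50, 71 and 74, and 13 and 14 peaks in NSC and BTSC. The intervals of these 5 ratios all included 1, and those of windows 14, 5, 35 and 29 also included the ratio of the whole chromosome.

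By place, most of the added H3K27ac lay inside genes away from their starts. H3K27ac peaks centred within 1 kb of a start numbered 491 in NSC and 460 in BTSC, a ratio of 0.937 (0.823 to 1.07), close to the 0.944 of the 17 other autosomes with starts in the table. Peaks elsewhere inside genes numbered 881 and 1428, a ratio of 1.62 (1.49 to 1.76), against 1.08 elsewhere. Peaks between genes numbered 593 and 774, a ratio of 1.31 (1.17 to 1.46), against 0.871. These peaks were placed by all RefSeq starts, whereas bp were counted in fixed regions set by starts of protein-coding genes only. By bp the ratio was 1.12 at starts, 2.00 in the rest of genes and 1.44 between genes. These places gave 3.49%, 76.0% and 20.5% of the added bp. The ranges on the other autosomes were 0.889 to 1.02, 0.821 to 1.32 and 0.670 to 1.03. For TLX, ratios of peak numbers were 0.569 at starts, 0.721 inside genes and 0.640 between genes, against 0.112, 0.184 and 0.199 elsewhere.

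**Figure D3:**
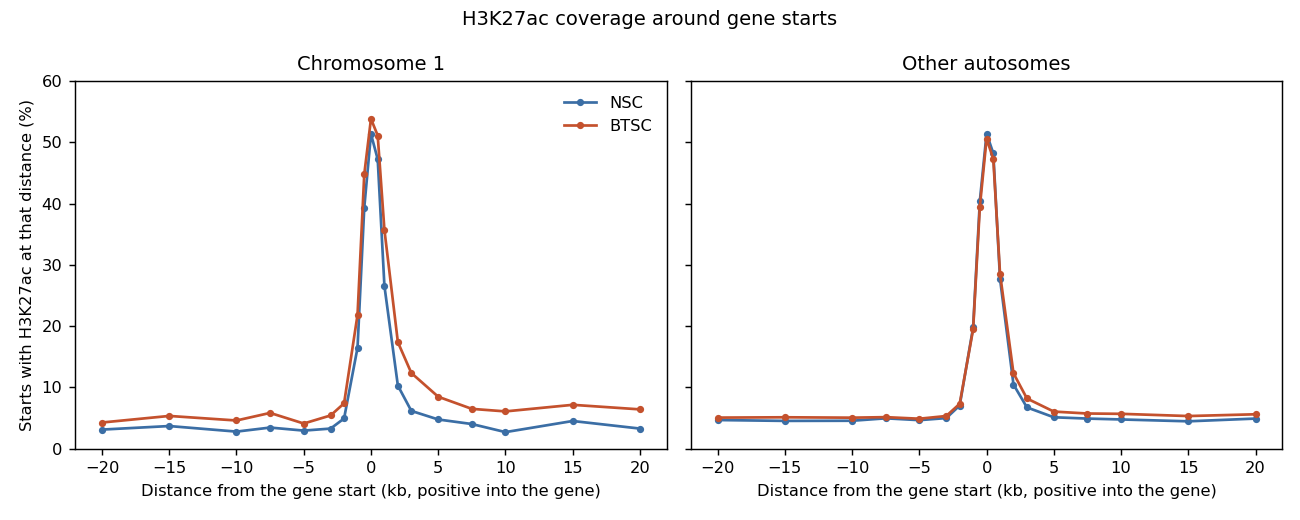
Share of RefSeq starts of protein-coding genes (%) with H3K27ac at a given distance from the start (kb, positive into the gene). Chromosome 1 is on the left and the other autosomes on the right, NSC in blue and BTSC in orange. At the start of chromosome 1 genes the lists read 51.4% and 53.8%, and at 3 kb into the gene 6.18% and 12.4%. On the other autosomes they read 51.4% and 50.6% at the start. At 3 kb into the gene BTSC was also higher there, at 6.75% and 8.21%.

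At the start position itself, 51.4% of the protein-coding starts of chromosome 1 were covered in NSC and 53.8% in BTSC. At 1 kb into the gene the shares were 26.5% and 35.7%, at 3 kb 6.18% and 12.4%, and at 10 kb 2.72% and 6.10%. On the other autosomes the shares at 3 kb were 6.75% and 8.21%. Of 988 chromosome 1 protein-coding genes with a start in the table, 539 had H3K27ac within 1 kb of a start in both cultures, 33 in BTSC only (3.34%; 1.72% over all genes) and 10 in NSC only (1.01%; 2.21% over all genes). Genes with such a start peak in BTSC only included Rxrg, encoding a retinoid X receptor, Fmod, encoding fibromodulin, Hsd11b1, which converts glucocorticoids, and Rgs16, a regulator of G protein signalling. Rxrg went from 0 to 3202 bp and Rgs16 from 1581 to 6492 bp around the gene ends. Those with one in NSC only included the synaptic genes Rims1 and Syt2, the sodium leak channel gene Unc80, and Tagln2, with 11588 bp in NSC against 2630 bp in BTSC. Around the gene ends Rims1 had 1264 and 774 bp and Unc80 4187 and 3400 bp, while Syt2 had more in BTSC, 930 and 1348 bp. These examples of start peaks were chosen after their values were seen.

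H3K27ac around genes was measured as covered bp within 25 kb of either end of a gene. A gene was called higher in one culture from a ratio of 1.5 and level where neither culture exceeded the other by over 25%, with at least 2000 bp in 1 culture. Long genes have up to 4 such flanks of 25 kb and short genes fewer bp in reach, so differences are not per length, and neighbours can share peaks. Of 1204 protein-coding genes, 421 were higher in BTSC, which is 35.0%, where 12.8% of all genes were. Level genes numbered 185, 15.4%, where 27.5% of all genes were. Genes higher in NSC numbered 31, 2.57%, where 6.56% of all genes were. The remaining 126 lay between and 441 were under the minimum. From a ratio of 2, 232 genes were higher in BTSC and 17 in NSC, and the share of all genes was not taken at this ratio. A ratio of 3 or more was reached at 89 genes, 7.39%, where 1.88% of all genes reached it. Genes higher in BTSC lay in 35 of the 40 windows and level genes in 33.

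The 10 genes with the largest gains had varied roles. Arhgef4, an exchange factor for small GTPases that binds APC, had 15261 bp in NSC and 49480 bp in BTSC. Mapkapk2, a kinase activated by p38, had 8949 and 40638 bp. Itpkb, which phosphorylates inositol trisphosphate, had 8656 and 37418 bp, with 1 TLX peak in NSC and 3 in BTSC. Phlpp1, a phosphatase that removes an activating phosphate from Akt, had 12663 and 38210 bp, with 5 TLX peaks in NSC and 2 in BTSC. Map4k4, a kinase upstream of JNK, had 9042 and 32999 bp. Trp53bp2, which encodes the p53 partner ASPP2, had 6557 and 38356 bp. Sh3bp4, which takes part in endocytosis, had 12224 and 38709 bp, Klf7, a zinc finger transcription factor, 15174 and 36835 bp, and Serpine2, a secreted inhibitor of thrombin, 18189 and 39109 bp. The last of the 10 was 2810459M11Rik with 15244 and 35855 bp. All but Arhgef4 had TLX within 10 kb in both lists, as had 178 of the 1204 genes of chromosome 1 (14.8%) and 4.59% of all genes. These shares are not alike: the 10 were picked for H3K27ac, while 441 of the 1204 were under its minimum. Of the chromosome 1 TLX peaks, 92.0% in NSC and 95.6% in BTSC overlapped H3K27ac of the same culture. In the BTSC list TLX was near 25.4% of genes higher in BTSC and 28.6% of level genes.

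**Figure D4:**
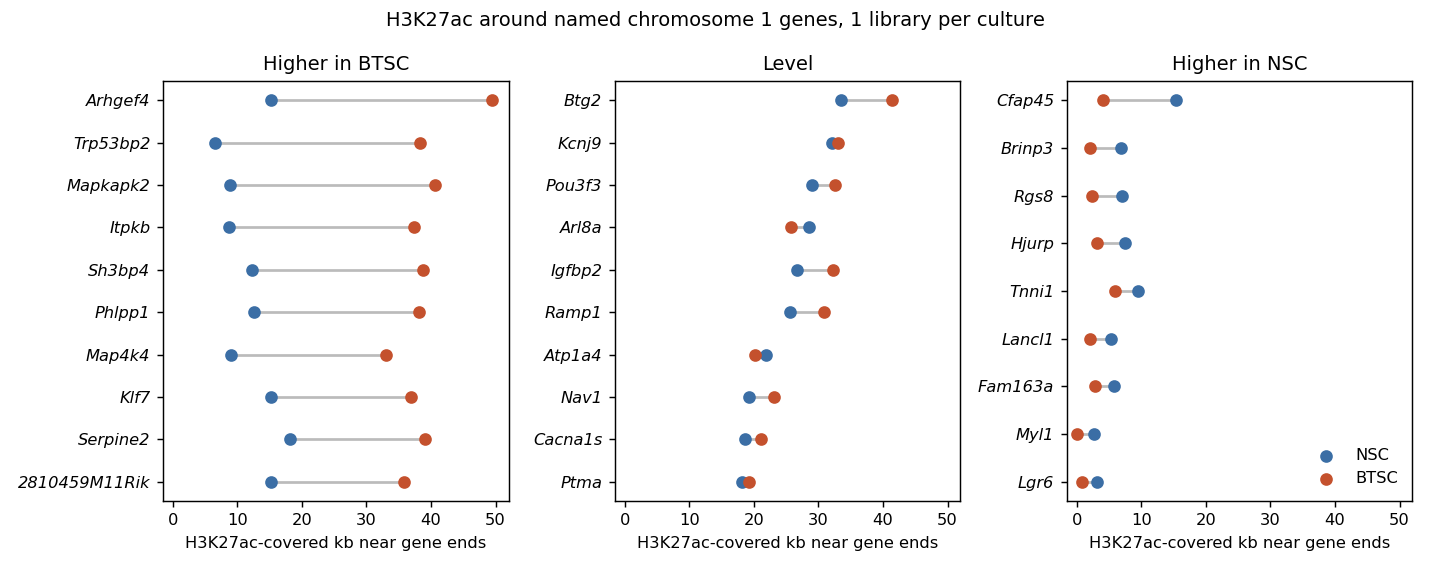
H3K27ac-covered kb within 25 kb of either gene end in NSC (blue) and BTSC (orange), 1 library each, for the 10 genes with the largest gain in BTSC, the 10 level genes with most H3K27ac in NSC and 9 of the 10 genes with the largest loss. The gains, from Arhgef4 (15261 to 49480 bp) down, are longer than the losses, the longest of which is Cfap45 (15330 to 4023 bp).

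Level genes included several with broad H3K27ac in both cultures. Btg2, an antiproliferative gene that p53 induces, had 33548 bp in NSC and 41470 bp in BTSC. Pou3f3, a POU factor of neural progenitors, had 29037 and 32564 bp, with 4 TLX peaks in NSC and 2 in BTSC. Kcnj9, encoding a potassium channel subunit, had 32143 and 32974 bp, Igfbp2, a binder of insulin-like growth factors, 26624 and 32241 bp, and Ramp1, a subunit of the receptor for calcitonin gene-related peptide, 25668 and 30943 bp. Arl8a, a lysosomal GTPase, and Atp1a4, a sodium pump subunit, had slightly less in BTSC, at 28480 and 25760 bp and at 21879 and 20183 bp. Nav1, Cacna1s and Ptma made up the 10, with ratios of 1.21, 1.13 and 1.06.

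The genes higher in NSC had smaller differences. Cfap45, a gene of cilia and flagella, had 15330 bp in NSC and 4023 bp in BTSC. Brinp3, a neural gene, had 6831 and 2040 bp, Rgs8, a regulator of G protein signalling, 7058 and 2379 bp, and Hjurp, the chaperone that loads the centromeric histone CENP-A, 7504 and 3147 bp. Lgr6, a receptor for R-spondins, had 3149 and 805 bp. The muscle genes Tnni1 and Myl1 had 9447 and 5876 bp and 2725 and 0 bp. Within 1 kb of a start, however, Tnni1 had H3K27ac in BTSC only. Lancl1 and Fam163a had ratios of 0.396 and 0.505. TLX was found within 10 kb of 2 of the 31 genes higher in NSC in the BTSC list, 6.45%, of 53 of the 185 level genes, 28.6%, and of 107 of the 421 genes higher in BTSC, 25.4%. In the NSC list the shares were 29.0%, 51.4% and 35.9%.

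In gene lists by role, the median difference over all genes of chromosome 1 was 702 bp more in BTSC and that over all protein-coding genes of the genome 0 bp. Each count below stands beside the shares of chromosome 1: 35.0% higher in BTSC, 15.4% level and 2.57% higher in NSC. Of 26 genes of receptor kinases, PI3K and MAP kinase signalling, 15 were higher in BTSC, 7 level and none higher in NSC, and the median difference was 2236 bp. Among receptors, Erbb4 had 5907 and 14073 bp, with 3 TLX peaks in NSC and none in BTSC, and Epha4 had 3895 and 19603 bp, with 1 and none. Among kinases, Abl2 had 2663 and 14103 bp. The adaptor gene Irs1 was level at 10980 and 11238 bp, as was Dusp10, a phosphatase of MAP kinases, at 16632 and 15973 bp.

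Of 10 genes of the Notch and Hedgehog pathways, 7 were higher in BTSC and none higher in NSC or level. They included Ncstn and Psen2, subunits of gamma-secretase, at 2328 and 5380 bp and at 1491 and 2330 bp, Hes6 at 7717 and 12436 bp, and Rab23, a GTPase that restrains Hedgehog signalling, at 4747 and 9719 bp. Of 15 genes of the Wnt, BMP and TGF-beta pathways, 3 were higher in BTSC, 1 (Lgr6) higher in NSC, 3 level and 5 between. Wnt10a had 863 and 4213 bp, and the receptors Fzd5 and Fzd7 were level. Of 33 developmental transcription factors, 12 were higher in BTSC, none higher in NSC and 4 level, and 13 were under the minimum. Prox1, a homeobox factor, had 6754 and 13158 bp, while Lhx4, a LIM homeobox factor, was level at 6344 and 7301 bp.

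Of 19 genes of p53, apoptosis and tumours, 10 were higher in BTSC, 4 level and none higher in NSC. Parp1, which senses DNA breaks, had 2213 and 5520 bp, and Mdm4, an inhibitor of p53, had 6435 and 9122 bp and lay between the calls. Of 20 cell cycle genes, 9 were higher in BTSC, 3 level and 1, Hjurp, higher in NSC. Aspm, a spindle gene of neural progenitors, had 1951 and 14038 bp, and Kif14, a kinesin of cytokinesis, 5787 and 10003 bp, while Cenpf was level at 7615 and 9177 bp.

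Of 16 genes of astrocytes and radial glia, 8 were higher in BTSC, 5 level and none higher in NSC. Kcnj10, the potassium channel of astrocytes, had 22504 and 35238 bp with 3 TLX peaks in either list, whereas its neighbour Kcnj9 was level. Glul, encoding glutamine synthetase, lay between the calls with less in BTSC, at 5934 and 4343 bp. Of 25 genes of neurons, synapse and guidance, 7 were higher in BTSC, 2 higher in NSC (Brinp3 and Scg2), 7 level and 8 under the minimum. Srgap2, a regulator of neuronal migration, had 13142 and 29366 bp. Of 19 extracellular matrix genes, 5 were higher in BTSC, among them Lamc1, a laminin chain, at 11278 and 27314 bp, and Tnn was higher in NSC at 2691 and 575 bp.

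Of 21 housekeeping genes, 13 were higher in BTSC, 4 level and none higher in NSC, with a median difference of 2205 bp. Rpl7 and Rpl31, ribosomal proteins, had 3004 and 7814 bp and 2044 and 7115 bp, and Psmd1, a proteasome subunit, 11716 and 27267 bp. The share called higher in BTSC was above the 35.0% of the chromosome in this list as in several others. It was below 35.0% in the lists of Wnt, BMP and TGF-beta pathways, of neurons, synapse and guidance, and of extracellular matrix. The immune list and that of nuclear receptors and chromatin cofactors also lay below it. Nothing particular to a list was read from its share. Of 9 nuclear receptors and chromatin cofactors, 3 were higher in BTSC (Rxrg, Nr1i3 and Rbbp5) and 2 level (Rcor3 and Kdm5b).

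**Figure D5:**
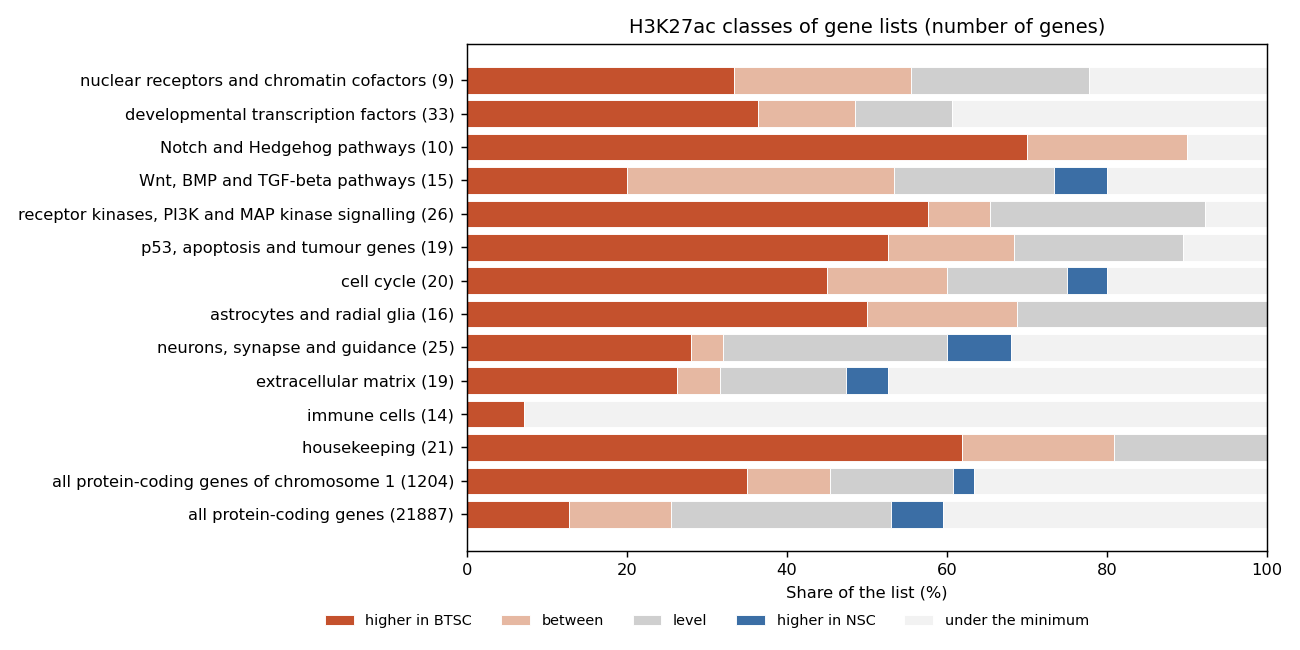
Share of each list (%) by class of H3K27ac-covered bp, with the number of genes in brackets: higher in BTSC (dark orange), between (light orange), level (grey), higher in NSC (blue) and under the minimum (pale). Genes higher in BTSC make up 35.0% of chromosome 1 and 12.8% of all genes, and 13 of 21 housekeeping genes.

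Of the NSC TLX peaks, a higher share met a BTSC peak on chromosome 1 than elsewhere, and of the BTSC TLX peaks a lower share met an NSC peak. Such shares depend on the peak numbers by which chromosome 1 was chosen, so they are a description. It held 297 BTSC beside 461 NSC peaks, against 1132 beside 6951 on the other autosomes. Of the 461 NSC peaks, 195 met a BTSC peak, 42.3% (37.7 to 47.0), against 14.1% (13.2 to 14.9) on the other autosomes. The NSC list was also cut into 5 equal bins by −log10 q. From the highest −log10 q down, the share was 73.3%, 43.3%, 39.3%, 32.0% and 21.7% on chromosome 1. Elsewhere it was 42.6%, 14.1%, 7.66%, 3.77% and 1.98%. Of the 297 BTSC peaks, 102 met no NSC peak, 34.3% (29.0 to 40.0) against 13.9%. Of these 102, 79 lay in H3K27ac of both cultures, 17 in H3K27ac of BTSC alone, none in that of NSC alone and 6 in neither. In this order the first 2 and the last were 77.5%, 16.7% and 5.88%. On the other autosomes the 4 shares were 72.6%, 16.6%, 1.91% and 8.92%. Within the whole of chromosome 1, 92.0% of NSC and 95.6% of BTSC TLX peaks overlapped H3K27ac of the same culture. On the other autosomes 91.7% and 92.7% did, so these shares were not particular to chromosome 1.

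The leading TLX sites of chromosome 1 were found in both lists, with 1 exception. The first of the BTSC list lay between genes at chr1:138326041-138326772, 36579 bp from Atp6v1g3, with a fold of 19.1 in BTSC and 11.9 in NSC, in no H3K27ac peak of either culture. A peak in Plxna2, a semaphorin receptor gene, led the NSC list and ranked 3 in BTSC, with folds of 12.4 and 9.51, and overlapped H3K27ac in BTSC alone. Peaks at the starts of Tmem131 and of Eef1b2 beside Ndufs1 were among the 10 leading BTSC peaks. The exception was the second of the NSC list, at chr1:34664315-34666619, 11330 bp from Arhgef4, with a fold of 16.3 and no BTSC peak, in H3K27ac of both cultures. Arhgef4 was also the gene with the largest H3K27ac gain.

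The leading BTSC peaks with no NSC counterpart lay 118573 bp from Fhl2 with a fold of 8.95, 25270 bp from Mcm3, which encodes a subunit of the replicative helicase, with a fold of 7.74, and 9782 bp from Tnp1 with a fold of 7.55. Others lay inside Plekha6, Uxs1, Eya1, Dennd1b, Sh3bp4 and Uck2. By gene, 211 of 1204 had TLX within 10 kb in BTSC, 17.5%, where 5.12% of all genes did, and 345 in NSC, 28.7%, where 24.8% did. TLX in BTSC only was found at 33 genes, 2.74%, where 0.525% of all genes had it. These included Hlx, a homeobox gene, with 1 peak, Zbtb18, a repressor active in neuronal development, with 2, Capn2, a calpain, with 1, Cenpf with 1 and Traf5 with 1. More TLX peaks in BTSC than in NSC were also seen at Plcl1 and Rgl1, with 2 in NSC and 4 in BTSC each, and at Hdac4, Aff3, Eya1 and Itpkb, with 1 and 3 each.

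Broad BTSC H3K27ac peaks with no NSC counterpart lay inside genes, several of which are named above. The widest, of 9772 bp, was at chr1:89102416-89112187 in Sh3bp4, with a fold of 3.29. Peaks of 9069 and 6045 bp lay in Epha4, with folds of 6.22 and 4.07. Others lay in Phlpp1 (7229 bp, fold 2.79), Lrrfip1 (6905 bp, fold 2.53), Rgl1 (6889 bp, fold 5.09) and Map4k4 (6700 bp, fold 3.02). The rest lay in Srgap2 (6425 bp, fold 3.09), Agap1 (6254 bp, fold 2.62) and Eprs (5984 bp, fold 2.53). The median fold of all BTSC H3K27ac peaks on chromosome 1 was 3.76. Agap1 was level around its ends, at 5033 and 5907 bp. All 10 lay inside genes and none was centred within 1 kb of a start. The widest NSC peak with no BTSC counterpart had 4111 bp and lay at Hjurp and Mroh2a, at chr1:88260470-88264580. Over the chromosome, the median fold of unmatched H3K27ac peaks was 2.67 in BTSC and 2.69 in NSC, and that of matched peaks 6.18 and 4.90.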

How the data were processed

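Peak lists of 4 libraries were used, narrow for TLX and broad for H3K27ac. The genome build was mm10 and the tools named are Bowtie, ChIPseeker and bcl2fastq 2.17.1.14, per the submitters' processing notes; the program that called the peaks is not given in the sources used here. For each peak the authors deposited a score, with a fold enrichment (a linear ratio), −log10 values of p and q and, for TLX, a summit offset. These −log10 q-values and −log10 p-values are as deposited. The lowest deposited −log10 q-value of the whole list was 2.13 and 2.14 for TLX and 1.02 and 1.03 for H3K27ac, in NSC and BTSC. Read numbers are unknown, which leaves the depth behind each peak unknown.

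From these files, peaks were compared by an overlap of at least 1 bp, counted in windows of 5 Mb and set against the 21887 protein-coding genes of RefSeq on GRCm38.p6, to which mm10 corresponds. All listed gene symbols, 243 different genes in 13 lists, were found, 1 of them by an older symbol. Starts came from the RefSeq promoter table; starts on chromosome 18 were not used here, which leaves 17 other autosomes for values at starts. H3K27ac peaks were placed by midpoint and TLX peaks by summit. Shares have Clopper-Pearson and ratios exact conditional binomial 95% intervals. No test was made, since each group had 1 library. The named genes are the 10 of largest gain, the 10 of largest loss and the 10 level ones with most H3K27ac in NSC. Genes whose window overlaps one already chosen were skipped. TLX peaks named are the 10 of highest −log10 q per list and among BTSC peaks without a counterpart. Also named are the 5 windows of highest and lowest H3K27ac ratio, the widest unmatched H3K27ac peaks and list members. A few of these genes are not reported here, while counts include them. The chromosome, gene lists and rules were chosen with earlier results of these data known. Coverage and overlap were checked on H3K27ac peaks of another chromosome, the ratio interval on simulated counts and the gene calls on set values. Python 3.11.15, pandas 2.3.3 and SciPy 1.17.1 were used.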

Additional observations from a re-analysis of the deposited data

How the results depend on the processing

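Of 33 alternatives over 10 results, 18 left the value within its interval or, for counts, within 1.5 times, 14 moved it and 1 turned it. With the NSC TLX list cut to the length of the BTSC list, the TLX ratio on chromosome 1 went from below 1 to 3.81, and 71.8% of the NSC peaks met a BTSC peak; the cut itself takes fewer NSC peaks. A −log10 q of at least 5 gave an H3K27ac ratio of 1.21, 3 windows with excess and 29.4% unmatched BTSC H3K27ac peaks. Windows with excess numbered 23 from 25% more peaks in BTSC, 24 by covered bp, 4 with windows of 10 Mb and 24 with windows of 2 Mb. A reciprocal overlap of 50% gave 56.3% unmatched BTSC H3K27ac peaks and 37.1% matched NSC TLX peaks. From 2-fold, 232 genes were higher in BTSC and 17 in NSC. With a minimum of 5000 bp, 13 were higher in NSC and 96 level. The share of all genes was not taken at either setting, so these counts stand without a background. In each of these alternatives but the cut to equal lengths, the direction between cultures was as reported. The causes were not tested. No paired analysis was possible because each group has 1 library. Unknown read depth limits all comparisons of peak numbers between libraries.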
